A study of Mus musculus with 7 samples.

Results

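Mdm2 encodes an E3 ubiquitin ligase that binds the tumour suppressor p53 and marks it for degradation, and p53 in turn drives transcription of Mdm2, so that the pair forms a feedback loop. The gene takes its name from small paired extrachromosomal DNA bodies, murine double minutes, of a transformed mouse 3T3 line in which it was found amplified. It lies on mouse chromosome 10 among genes with unrelated tasks in protein folding, chromatin, RNA processing, nuclear pores and cell adhesion. The 10 genes described here are Cct2, Yeats4, Lyz2, Cpsf6, Cpm, Mdm2, Slc35e3, Nup107, Rap1b and Mdm1, in the chromosomal order of RefSeq assembly GRCm38.p6, out of 18820 genes measured. They were picked from these data as a run of neighbours that was lower with an inhibitor of stearoyl-CoA desaturase (SCD), which introduces a double bond into saturated fatty acyl chains. The picking used the difference between inhibitor and control, so for these genes the difference, its standard error or interval, its call and its place among all genes are a description, and no support is drawn from them. Genes that did not enter the choice are tested. Each of the 10 genes has 1 row on the array.

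The cells were 3T3-L1, a mouse cell line that can be turned from fibroblast-like precursors into fat cells, differentiated here for 7 days, the first 2 of them with isobutylmethylxanthine, dexamethasone and human insulin, and then with insulin alone. Cultures of the control group (4 arrays) received DMSO, and those of the inhibitor group (3 arrays) received 1 µM of an SCD inhibitor that the labels do not name, both for the whole differentiation until RNA was taken on day 7. In the labels the material is named pre-adipocyte, while the series design speaks of adipocytes. Whether replicates were separate cultures is not said, so a p-value here covers the spread of these samples alone, and that spread may be technical. Levels are deposited log2 values made with RMA, a method that corrects background, aligns the arrays and summarises the probes of a gene. A difference is inhibitor minus DMSO on that scale, where -1 means a halving. The call threshold was an adjusted p of 0.05 in limma over all 18820 genes.

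Over all rows, correlations within a group ran from 0.99869 to 0.99946 and those across groups from 0.99711 to 0.99796. Adipoq, which encodes the fat cell hormone adiponectin, was at 12.39 ± 0.022 in DMSO (SD, n = 4) and at 12.44 ± 0.043 under inhibitor (SD, n = 3). Of 12 fat cell markers measured, 1 had a level under 5 in the mean over all arrays. In this list 1 was called lower and none higher: Slc2a4, the insulin-responsive glucose transporter, fell by 0.80. Adipoq and other markers of this list had DMSO means near the top of the array's scale, up to 12.71. Of 53 genes with a DMSO mean above 12.10, 1 was called lower and none higher in limma. Whether the upper end of the scale hid a change in such markers was not tested. Pre-adipocyte and fibroblast markers differed between the groups. Of 10 measured, 6 were called higher with the inhibitor, none lower, and their mean level lay between 8.33 and 8.43 on the DMSO arrays and between 8.74 and 8.80 on the inhibitor arrays. Among them Pdgfra, a growth factor receptor of fat cell precursors, rose by 0.89 (SE 0.093, adjusted p = 0.00245 in limma). The part of this shift in the levels of the chromosome 10 genes was not tested, and fewer cells of a type cannot be told apart from less RNA per cell.

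The genes of the run do not share a promoter. RefSeq (GRCm38.p6) gives a promoter for all 10, with start sites spread over 1078 kb, 8 on the minus and 2 (Cpm and Mdm1) on the plus strand. The 250 bases before the start are shown for the neighbours Mdm2, Slc35e3 and Nup107, since the first and second of these read almost the same in both groups and the third had the largest difference of the run, and for Cpsf6, which came next to Nup107 in size. They are written 5′ to 3′ on the strand of the gene, and capitals mark matches, on either strand, to the GC box GGGCGG, the CCAAT box, the TATA box with the letters TATAAA, the C/EBP-ATF element with the letters TGATGCAA or the p53 half-site. Matches of different motifs did not overlap in any of the 10 promoters.
Mdm2, chr10:117710759-117711008, minus strand: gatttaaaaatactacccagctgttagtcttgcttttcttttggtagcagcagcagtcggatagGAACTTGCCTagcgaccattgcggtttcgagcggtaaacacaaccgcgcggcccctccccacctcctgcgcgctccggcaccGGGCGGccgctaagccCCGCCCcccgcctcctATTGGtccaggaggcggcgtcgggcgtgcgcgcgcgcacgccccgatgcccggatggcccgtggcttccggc
Slc35e3, chr10:117746359-117746608, minus strand: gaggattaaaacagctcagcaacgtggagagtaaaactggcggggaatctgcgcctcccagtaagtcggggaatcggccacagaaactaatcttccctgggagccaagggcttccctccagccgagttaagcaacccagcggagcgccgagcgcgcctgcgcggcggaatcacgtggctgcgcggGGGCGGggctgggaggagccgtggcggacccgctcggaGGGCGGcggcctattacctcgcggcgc
Nup107, chr10:117792706-117792955, minus strand: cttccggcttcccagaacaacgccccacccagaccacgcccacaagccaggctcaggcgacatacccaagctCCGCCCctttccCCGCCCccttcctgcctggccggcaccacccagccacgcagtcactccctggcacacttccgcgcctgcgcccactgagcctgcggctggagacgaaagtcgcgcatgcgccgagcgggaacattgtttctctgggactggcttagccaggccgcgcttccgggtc
Cpsf6, chr10:117376974-117377223, minus strand: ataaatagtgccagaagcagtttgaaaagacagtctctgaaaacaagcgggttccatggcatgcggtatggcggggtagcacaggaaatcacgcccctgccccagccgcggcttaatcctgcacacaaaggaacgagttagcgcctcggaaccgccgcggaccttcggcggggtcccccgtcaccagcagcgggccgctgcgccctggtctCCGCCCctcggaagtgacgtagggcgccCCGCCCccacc
The GC box was found in 8 of the 10 promoters, all but those of Yeats4 and Lyz2, and in 32.9% of the promoters of all 27025 genes in the table. Mdm2, Slc35e3, Nup107 and Cpsf6 hold 2 matches each, which is a description of these windows. The CCAAT box was in 3 (Yeats4, Mdm2 and Mdm1) against 34.5% of all promoters, and the p53 half-site in 2 (Mdm2 and Lyz2) against 7.18%. A marked half-site is a match of letters. Binding of p53 was not measured, and sequence outside the 250 bases was not searched. No match to the TATA box (13.0% of all promoters) or the C/EBP-ATF element (0.818%) was found in these windows. Guanine and cytosine made up 41.6% (Lyz2) to 77.2% (Rap1b) of the bases, and the median over all promoters was 52%.

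All 10 genes had a lower mean with the inhibitor, but by very unequal amounts. The arrays measured RNA, and the number of gene copies in these cells was not measured. Nup107, Cpsf6, Mdm1, Yeats4 and Cpm were lower by more than 2-fold, Rap1b and Cct2 by about 1.4-fold to 1.5-fold, Lyz2 by less, and Mdm2 and Slc35e3 by almost nothing. For 8 of the 10 every inhibitor array lay below every DMSO array, against 9.02% of all genes, and 7 of the 10 were called lower, against 4.37% of all genes (823 of 18820; 543 without DMSO 4, 541 without SCD inhibitor 3 and 374 without both arrays numbered 1). None was called higher, against 3.62% of all genes, and none had every inhibitor array above every DMSO array, against 8.3%. These counts follow from how the run was picked. The same 7 genes were called in each of the 16 alternative fits.

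**Figure D1:**
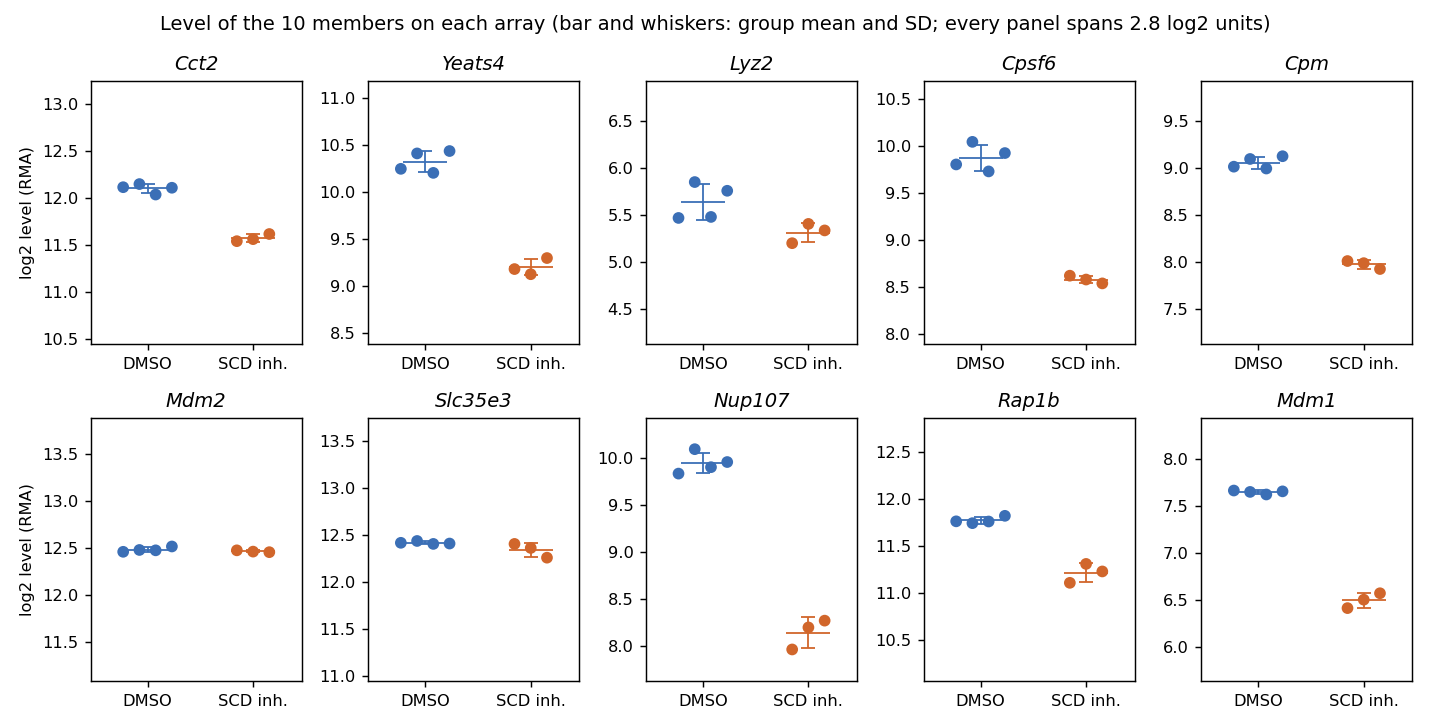
Level of each of the 10 genes on each array, as log2 RMA values, with DMSO arrays 1 to 4 in blue and SCD inhibitor arrays 1 to 3 in orange. Horizontal bars and whiskers are the group mean and SD, and every panel spans the same range, so the differences of -1.80 in Nup107 and -0.02 in Mdm2 can be compared by eye.

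Mdm2 itself, the p53 ligase, read 12.46, 12.48, 12.48 and 12.52 on DMSO arrays 1 to 4 and 12.48, 12.46 and 12.46 on inhibitor arrays 1 to 3. The groups overlapped, and all 7 values lay within a narrow band near the top of the array's scale. The difference was -0.02 (SE 0.020, 95% interval -0.07 to 0.03), and its sign turned, to 0.02, after a further quantile normalization. Slc35e3, a carrier-like protein of the nucleotide sugar transporter family, stands next to Mdm2 on the chromosome. It read 12.42, 12.44, 12.41 and 12.41 in DMSO and 12.41, 12.36 and 12.26 with the inhibitor, a difference of -0.07 (SE 0.035, 95% interval -0.16 to 0.01). Inhibitor array 1 equalled the lowest DMSO array, and inhibitor array 3 was the lowest of all.

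Mdm2 and Slc35e3 were the only members with a DMSO mean above that of Cct2 (12.10). In all, 53 genes lay above that mean. Of these, 1 was called lower and none higher in limma, and their differences ran from -0.33 to 0.09. Cct2 was thus the gene with the highest DMSO mean that was lower by more than 0.5. Whether a fall of Mdm2 or Slc35e3 was hidden by the upper end of the scale was not tested.

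Nup107, a scaffold protein of the Y complex that builds the nuclear pore, had the largest difference. It read 9.83, 10.09, 9.90 and 9.95 in DMSO and 7.96, 8.19 and 8.27 with the inhibitor. The gap between the lowest DMSO and the highest inhibitor array was 1.56. The SD was 0.11 in DMSO and 0.16 with the inhibitor. The mean was 3.49-fold lower (log2 -1.80, SE 0.089), which put Nup107 in place 17 among the 823 genes called lower. It lies next to Slc35e3, whose difference was -0.07.

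Cpsf6, a subunit of the cleavage factor that helps to choose where pre-mRNAs are cut and polyadenylated, read 9.81, 10.05, 9.73 and 9.93 in DMSO and 8.62, 8.58 and 8.54 with the inhibitor. Its inhibitor arrays lay close together (SD 0.041), far below all DMSO arrays, at a difference of -1.30 (SE 0.074, 2.46-fold). Yeats4, a reader of acylated histones in the TIP60 and SRCAP chromatin complexes, read 10.24, 10.41, 10.20 and 10.43 in DMSO and 9.18, 9.12 and 9.29 with the inhibitor. Its difference was -1.12 (SE 0.071, 2.18-fold), and the groups were apart by more than 0.9.

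Cpm, a carboxypeptidase of the cell surface that trims basic residues from the ends of peptides, read 9.01, 9.09, 8.99 and 9.12 in DMSO and 8.01, 7.98 and 7.92 with the inhibitor. The difference was -1.08 (SE 0.040, 2.12-fold) with a tight spread in both groups. Mdm1, a microtubule-binding protein of centrioles, carries a name of the same origin as Mdm2. It read 7.67, 7.65, 7.62 and 7.66 in DMSO and 6.42, 6.51 and 6.57 with the inhibitor. Its difference was -1.15 (SE 0.037, 2.22-fold), and the SD among the DMSO arrays was 0.018.

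Rap1b, a small GTPase of integrin signalling and cell adhesion, read 11.76, 11.74, 11.76 and 11.82 in DMSO and 11.11, 11.31 and 11.23 with the inhibitor. The groups were apart, with a difference of -0.56 (SE 0.048, 1.47-fold). Cct2, a subunit of the CCT chaperonin that folds actin and tubulin, read 12.12, 12.15, 12.04 and 12.11 in DMSO and 11.54, 11.56 and 11.62 with the inhibitor. Its difference was -0.53 (SE 0.033, 1.44-fold).

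Lyz2, the lysozyme of macrophages and neutrophils, had the lowest level of the 10 on the array's scale. It read 5.47, 5.85, 5.48 and 5.76 in DMSO and 5.20, 5.40 and 5.33 with the inhibitor, and the highest inhibitor array came within 0.1 of the lowest DMSO array. Its difference was -0.33 (SE 0.11). Lyz1 and Lyz2 are closely related copies, and how far the probes of each tell them apart is not known here. Of 18 macrophage markers 16 had a mean level under 5. Lyz1, at a mean level of 5.33, is counted among the 18 although it lies between members of the run. The mean level of the 18 ran from 3.95 to 3.98 on the DMSO arrays and from 3.94 to 4.01 on the inhibitor arrays. In this list 1 was called higher and none lower: Fcer1g, an Fc receptor subunit, rose by 0.40 at a level under 5. Leaving out DMSO 1 and SCD inhibitor 1 together ended that call (adjusted p = 0.0592 in limma).

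By position on the scale, the 5 members with a DMSO mean between 7 and 11 had differences of -1.80 to -1.08, and the 4 with a DMSO mean above 11 had differences of -0.56 to -0.02. Lyz2, with a DMSO mean under 7, had one of -0.33, and within the first group the differences did not follow the level, since Mdm1 at 7.65 had a larger decrease than Cpm at 9.05. Among all genes called lower, the median difference was -0.33 between 7 and 11 (633 genes), -0.26 above 11 (48 genes) and -0.46 under 7 (142 genes). Ero1a, an oxidase of the endoplasmic reticulum chosen here after its value was seen, went from 12.07 in DMSO to 10.71. Its DMSO mean was below that of Cct2 (12.10), and so below those of Mdm2 and Slc35e3.

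**Figure D2:**
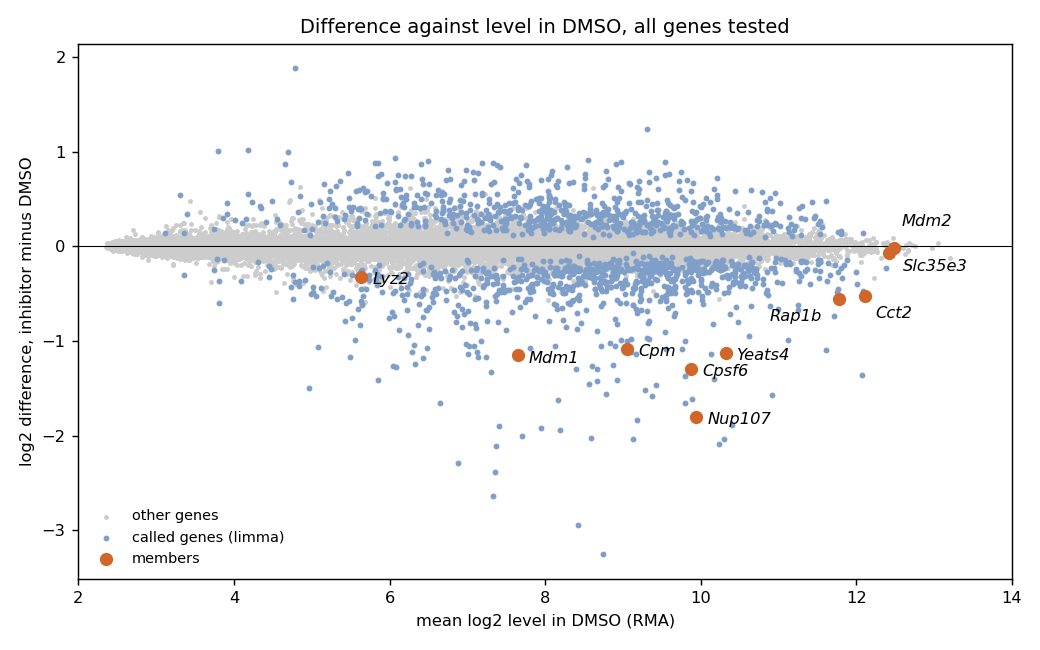
Difference between inhibitor and DMSO (y axis, log2) against the mean level in DMSO (x axis, log2 RMA value) for all 18820 genes, with called genes in blue and the 10 members in orange. Mdm2 and Slc35e3 sit at the right end close to 0, Cct2 and Rap1b lie just to their left at -0.53 and -0.56, and the 5 members of middle level lie between -1.08 and -1.80.

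The genes on either side of the run are given for their values, since the run was picked as neighbours that were lower and its contrast with them was fixed by that choice. Of 20 measured genes around it, 10 on each side, 10 had a level under 5, 1 was called lower and none higher, and the median difference was -0.02, against -0.82 for the members and -0.00 for all genes. That gene was Rab3ip, an exchange factor for a small GTPase of vesicle transport, the fourth measured gene before Cct2. It read 9.67, 9.62, 9.53 and 9.67 in DMSO and 9.28, 9.22 and 9.25 with the inhibitor, a difference of -0.37 (SE 0.039). The measured genes between Rab3ip and Cct2 were dim and did not pass the test: D630029K05Rik and Best3 had levels under 5, and Lrrc10 had a level of 5.72 and a difference of -0.00.

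Cnot2, a subunit of the mRNA deadenylation complex and the nearest bright gene before Rab3ip, read 8.84 in DMSO and 8.85 with the inhibitor. After Mdm1, Iltifb and Ifng had levels under 5. Dyrk2, a protein kinase that follows them, had a difference of -0.16 (SE 0.066), and Cand1, a regulator of cullin ubiquitin ligases, had one of 0.06. Hmga2, a chromatin protein and the tenth gene after the run, had the highest value of the 20 at 0.42 (SE 0.14) and did not pass (adjusted p = 0.144 in limma). It was called higher without SCD inhibitor 1 (adjusted p = 0.0421 in limma) and without both arrays numbered 1 (0.00772). Of the 20 genes, Cnot2, Dyrk2 and Llph have more than 1 row and are given by the brightest. They are placed by the gene, and where the probes of that row lie was not checked.

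Within the run, 2 further measured genes lie between the members. 9530003J23Rik, between Yeats4 and Lyz2, read 5.43, 5.51, 5.36 and 5.68 in DMSO and 4.41, 4.23 and 4.32 with the inhibitor. Its difference was -1.17 (SE 0.081), and that of its neighbour Yeats4 was -1.12. The mean level over all arrays was 4.99 for 9530003J23Rik, under 5 and so dim, and 9.84 for Yeats4. Lyz1, the lysozyme of intestinal Paneth cells, lies between Lyz2 and Cpsf6, read 4.93 to 5.68 over all arrays with overlapping groups, and had a difference of -0.29 (SE 0.12). Frs2, which RefSeq places between Cct2 and Yeats4, was not analysed here.

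**Figure D3:**
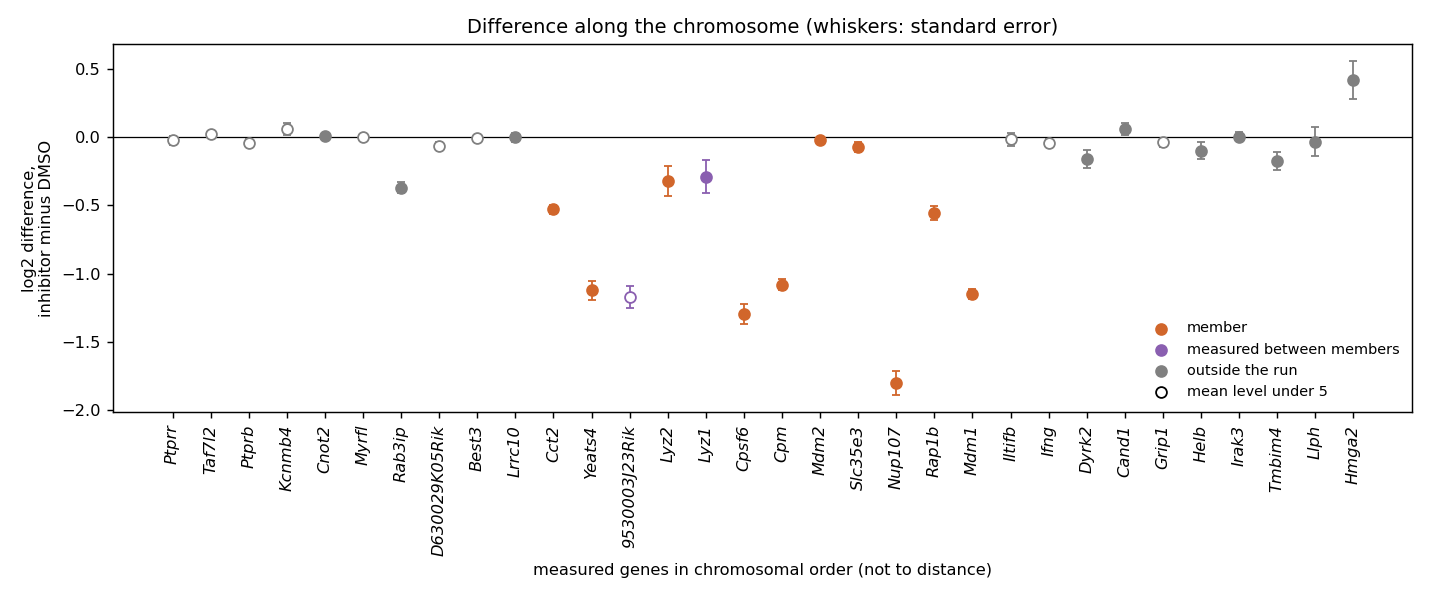
Difference between inhibitor and DMSO (y axis, log2, whiskers are standard errors) for the 10 members (orange), the 2 measured genes between them (purple) and 10 measured genes on each side (grey), in chromosomal order from left to right without regard to distance. Open circles are genes with a mean level under 5, and outside the run only Rab3ip, at -0.37, was called lower.

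The order of the arrays inside the DMSO group did not enter the choice of the genes, and it was looked at after the values were seen. DMSO 2 and DMSO 4 were the highest of the 4 DMSO arrays in 6 of the 10 members (Yeats4, Lyz2, Cpsf6, Cpm, Mdm2 and Nup107) and in 9530003J23Rik. The same order held for 13.4% of all genes, for 24.4% of the other genes called lower and for 2 of the 20 genes around the run. DMSO 3 was the lowest DMSO array in 6 of the 10 members. No such order was shared among the inhibitor arrays, where array 1 was the lowest in 5 and array 3 in 4 members. The points share the same 4 arrays, so this is a description and carries no test.

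By the distance between centred profiles over the 7 arrays, the 5 genes most like Mdm2 were Catip, Tmem165, Sap130, Nsun5 and Jhy, at distances of 0.0177 to 0.0208. Their differences ran from -0.02 to -0.01, so they share with Mdm2 little more than a flat profile, and at any height of the scale (levels from 3.62 to 9.96).

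The other genes of the p53 pathway were tested, since they played no part in picking the run. The gene lists were still chosen with earlier results of these data known. Of 29 measured p53 target genes 5 were called lower and 3 higher, with a median difference of 0.00. That is 27.6% called, against 8% of all genes called in either direction. The 2 shares are not matched for level. A level under 5 was found in 8516 of all 18820 genes and in 2 of these 29. With a DMSO mean under 7, 142 of 11532 genes were called lower, against 633 of 6817 between 7 and 11. Whether the share exceeds that of genes of like level was not tested. Cdkn1a, the cell cycle inhibitor p21 and a main readout of p53, was at 11.38 ± 0.0155 in DMSO (SD, n = 4) and at 11.41 ± 0.0225 under inhibitor (SD, n = 3) and did not pass (difference 0.03, SE 0.019, adjusted p = 0.416 in limma). Ephx1, an epoxide hydrolase, fell by 0.49 (SE 0.038, adjusted p = 6.91e-04 in limma). Trp53inp1, a stress protein, fell by 0.35 (SE 0.0425, adjusted p = 0.00462 in limma), with adjusted p = 0.0729 without both arrays numbered 1.

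Among the p53 targets called higher, Sesn1, a stress-responsive inhibitor of mTORC1 signalling, rose by 0.45 (SE 0.096, adjusted p = 0.0383 in limma), and Fas, a death receptor, by 0.41 (SE 0.069, adjusted p = 0.0159 in limma). Sesn1 lost its call without DMSO 1, DMSO 3, DMSO 4, SCD inhibitor 2 or SCD inhibitor 3 (adjusted p from 0.102 to 0.139 in limma) and without both arrays numbered 1 (0.0818). Fas lost it without DMSO 1 (0.0571), DMSO 3 (0.0528) or SCD inhibitor 2 (0.0529) and without both arrays numbered 1 (0.0978). The number of targets called higher was 1 without DMSO 1 or SCD inhibitor 3, and 0 without DMSO 3 or SCD inhibitor 2. Without both arrays numbered 1 it was also 1, and 2 were lower. That gene was Ak1 (adjusted p = 0.0447 in limma), which was not called in the main fit. Phlda3, the remaining target called higher in the main fit, lost its call there (0.0764). Ak1 and Phlda3 are named outside the rule for named genes.

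Of 18 measured regulators of p53 and MDM2 only Usp2 was called, a deubiquitinase that removes ubiquitin from MDM2, lower by 0.56 (SE 0.074, adjusted p = 0.00604 in limma). Mdm4, the closest relative of Mdm2 and its partner in holding p53 down, went from 7.77 ± 0.135 (SD, n = 4) to 7.61 ± 0.0447 (SD, n = 3) and did not pass (difference -0.16, adjusted p = 0.28 in limma). Cdkn2a, whose locus encodes the MDM2 inhibitor ARF, had a difference of 0.12 (adjusted p = 0.131 in limma). Trp53 was not analysed here. Of 18 cell division genes 1 was called higher, Ccnd1 (cyclin D1, by 0.47, SE 0.059), and 1 lower, Ccne1 (cyclin E1, by 0.19, SE 0.027), with a median difference of -0.05. Without DMSO 3, 2 cell division genes were called lower.

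Partners of the other members in the same complexes or families are set against the 8% of all genes called in either direction. That share includes many dim genes and is not matched to the level of these lists. The share called was 0% of the other CCT genes and SLC35E carriers, 5.88% of the TIP60 and SRCAP subunits, 9.52% of the Rap1 genes, 12.5% of the Y complex genes, 13.3% of the carboxypeptidases and 22.2% of the 3′ end factors. None of the 8 other CCT chaperonin genes beside Cct2 was called in limma. By the p before adjustment, 2 passed 0.05, both higher and none lower, Cct3 (difference 0.25) and Tcp1 (0.17), and both were called higher with the arrays centred on their medians (adjusted p = 0.0488 and 0.0416 in limma). Of 8 other Y complex nucleoporins beside Nup107, Seh1l was called lower by 0.12 (adjusted p = 0.0365 in limma). Its call ended when any of DMSO 1 to 4, SCD inhibitor 1 or SCD inhibitor 3 was left out (adjusted p from 0.0754 to 0.112). The median difference was 0.02 in each of these lists.

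Among 18 other factors of pre-mRNA 3′ end formation beside Cpsf6, 1 was called lower and 3 higher. Cpsf4, which recognises the polyadenylation signal, fell by 0.45 (SE 0.054, adjusted p = 0.00457 in limma). Cstf2t, Cstf3 and Nudt21, the last of them the direct partner of Cpsf6 in its cleavage factor, rose by 0.33, 0.25 and 0.25. Cstf3 and Nudt21 have 2 rows each, and these values are from the brighter row. Where its probes lie was not checked. Nudt21 lost its call when any array but SCD inhibitor 1 was left out (adjusted p from 0.0834 to 0.163 in limma). Cstf3 lost its call without DMSO 3, DMSO 4 or any inhibitor array (0.0536 to 0.106), and Cstf2t without both arrays numbered 1 (0.0801). The number called higher was 1 without DMSO 3, DMSO 4, SCD inhibitor 2 or SCD inhibitor 3.

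Of 17 other TIP60 and SRCAP subunits beside Yeats4, Kat5, the acetyltransferase TIP60 itself, was called higher by 0.30 (SE 0.065, adjusted p = 0.0387 in limma). This call ended without DMSO 1, 2 or 3 and without SCD inhibitor 2 or 3 (adjusted p from 0.0888 to 0.129). Of 21 regulators and effectors of Rap1 GTPases beside Rap1b, Rap1gds1, which binds small GTPases, fell by 0.45 (SE 0.039, adjusted p = 0.00112 in limma). Apbb1ip, a Rap1 effector at integrins, rose by 0.33 (SE 0.063, adjusted p = 0.0244 in limma). That call was lost when any array but SCD inhibitor 1 was left out (adjusted p from 0.0505 to 0.0936). Without SCD inhibitor 3, 2 Rap1 genes were called lower.

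Of 15 other carboxypeptidases of the family of Cpm 2 were called higher and none lower. Cpe, which matures peptide hormones, rose by 0.65 (SE 0.092, adjusted p = 0.00779 in limma), opposite in sign to the difference of -1.08 in Cpm. Cpa6 rose by 0.46, with a mean level under 5, and lost its call when any array but SCD inhibitor 1 was left out (adjusted p from 0.0712 to 0.122 in limma), which left 1 called. Without SCD inhibitor 1, 4 of the carboxypeptidases were called higher. None of the 3 other SLC35E carriers was called in limma or had an unadjusted p under 0.05, and their differences ran from -0.14 to -0.00.

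**Figure D4:**
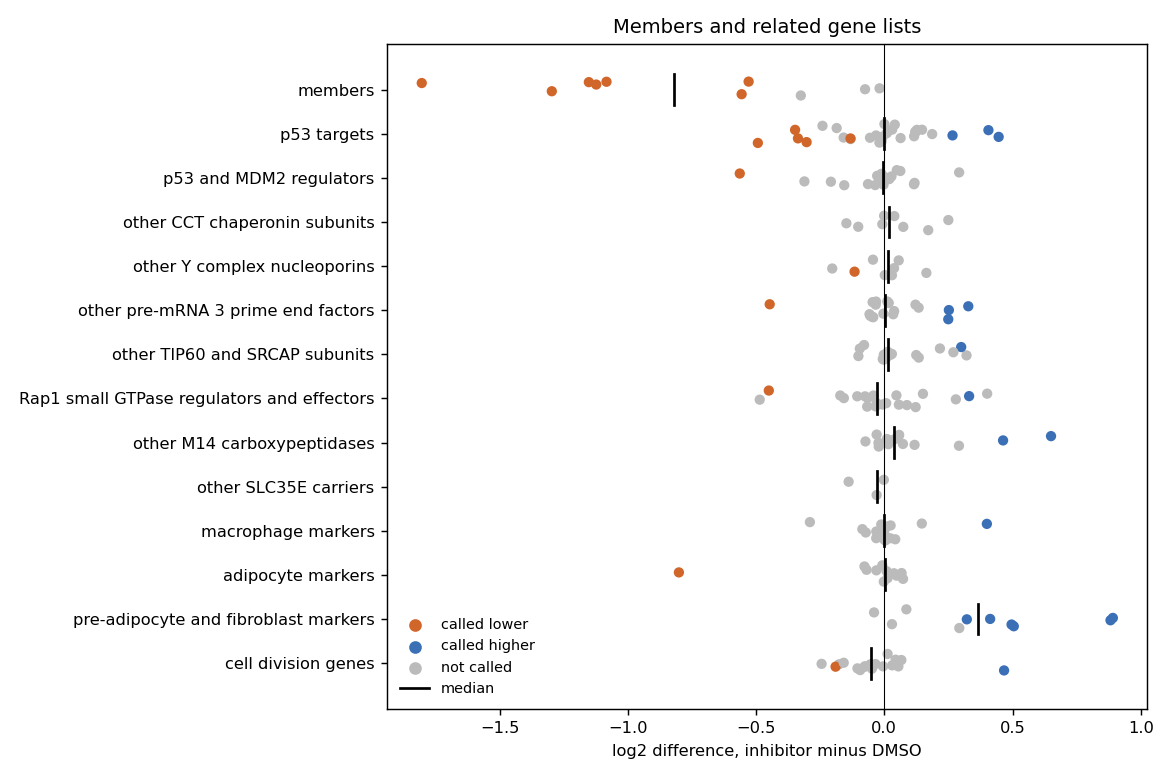
Difference between inhibitor and DMSO (x axis, log2) for each of the 10 members and for each measured gene of the related lists, with genes called lower in orange, higher in blue and not called in grey, and the list median as a black line. The members have a median of -0.82, while the lists of their partners have medians between -0.03 and 0.04, and the pre-adipocyte and fibroblast markers have one of 0.37.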

How the data were processed

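Total RNA, 100 ng per sample, was hybridised to Affymetrix whole-transcript arrays, per the labels' protocols. The deposited table holds log2 values made by the authors with RMA, per the submitters' processing notes; its software version, the annotation release, the genome build and any filter were not stated there. No scanner file or detection call entered the work, and precision is limited by the small number of arrays.

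Of 28996 rows, 21218 carried exactly 1 gene symbol in the array annotation. The brightest row stood for each of 18820 genes, with no filter on dim genes. Chromosomal order and promoters came from RefSeq (GRCm38.p6). All 7 arrays entered 1 limma 3.58.1 fit (lmFit and eBayes, R 4.3.3) with a term for the inhibitor, adjusted by Benjamini and Hochberg over all genes, after the code was tested on simulated data. Replicate numbers were not used as pairs. The median SE of a difference was 0.039, and the median difference over all genes was -0.00.

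The members and gene lists were chosen with earlier results of these data known. Named were all members, 10 measured genes on each side and those between, the 5 profiles nearest to that of Mdm2 (leaving out olfactory and vomeronasal receptors, small RNAs, RIKEN clones and predicted genes), Mdm4, Cdkn2a and Cdkn1a, and per list up to 4 called genes with the largest difference or, with none called, the 2 with the smallest p. Genes outside this rule are named as such. Alternatives were a replicate block, further quantile normalization, centring, filters on dim genes, the mean of a gene's rows, trend and robust options, array weights and arrays left out.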

Additional observations from a re-analysis of the deposited data

Results flagged for a closer look

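The 53 genes looked at were the members, some of their neighbours, genes of the lists and genes with a profile like that of Mdm2. In 6 of them the highest or lowest of the 4 DMSO arrays lay far from the other 3. Chance gives this in about 1 in 20 groups of untied values chosen without regard to those values. Some deposited values are tied exactly, and 3 equal arrays always give a gap of the full range. The count of 6 in 53 is therefore not read against that rate. Tmem165, Nsun5 and Jhy were chosen for a profile like that of Mdm2, in which DMSO 4 is the highest array, so that rate does not apply to them. None of the 10 members was among them. The gap to the nearest array as a share of the group's range was 1 for Dyrk2, where DMSO 2 read 6.87 and the other 3 arrays had the same deposited value of 6.69. It was also 1 for Tmem165, where DMSO 4 read 9.996 against 9.953 on the other 3, and for Jhy, where DMSO 4 read 3.65 against 3.61. It was 0.986 for Cand1, where DMSO 3 read 9.29 against 9.42 to 9.43, and 0.906 for Tcp1, where DMSO 2 read 10.50 against 10.61 to 10.62. It was 0.893 for Nsun5, where DMSO 4 read 6.48 against 6.43.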

How the results depend on the processing

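All 7 called members kept their call in each of the 16 alternatives. Among the 10 differences only that of Mdm2 moved by more than the spread of its arrays, to 0.0192 after a further quantile normalization. Over 39 results and all alternatives, 535 of 623 values kept their call or stayed within the spread of their arrays or within 1.5 times their count, and 88 moved. Among the differences of the members, those of the called genes kept their sign, and that of Mdm2, which was not called, turned once. Apart from genes removed by a filter, the cause of the moves was not tested. With the dimmest 50% of genes left out, Lyz2 gave no value.

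Same-numbered arrays deviated together only weakly (r = 0.174, 0.138 and 0.0796 over genes), so the numbers were not taken as pairs. With the replicate block, 437 genes were called higher and 459 lower over all genes. Under it, 1 p53 and MDM2 regulator was higher, 0 Y complex genes were lower, 0 3′ end factors were higher, 0 Rap1 genes were higher and 2 lower, 0 carboxypeptidases and 0 macrophage markers were higher, and 0 cell division genes were lower. Adjusted p values in limma with the block were 0.055 for Cpe, 0.0953 for Cstf2t and 0.0556 for Ccne1, which were then not called, and 0.034 for Hmga2, which was then called higher.

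After a further quantile normalization, 1032 genes were called higher over all, with 1 p53 and MDM2 regulator higher and 3 lower, 4 TIP60 and SRCAP subunits higher, 4 Rap1 genes higher and 3 lower, and 2 cell division genes lower. With arrays centred on their median, 1117 genes were higher, with 5 p53 targets higher, 2 regulators lower, 2 CCT genes higher, 0 Y complex genes lower, 3 TIP60 and SRCAP subunits higher, and 3 Rap1 genes higher and 2 lower. Leaving out the dimmest 25% of genes gave 3 regulators lower, 3 TIP60 and SRCAP subunits higher, and 2 Rap1 genes higher and 2 lower. Leaving out the dimmest 50% gave 3 regulators lower, 3 TIP60 and SRCAP subunits higher, and 3 Rap1 genes higher and 3 lower. It also gave 1 carboxypeptidase higher, 0 macrophage markers higher and 2 cell division genes lower. Cpa6 and Fcer1g, called higher in the main fit, were removed by that filter, so they were not tested again there. The mean of all rows of a gene and, separately, array weights each gave 2 regulators lower and 2 Rap1 genes higher, and the trend and robust options gave 2 Rap1 genes higher. Without both arrays numbered 1, 434 genes were higher and 374 lower, with 1 p53 target higher and 2 lower, 0 Y complex genes lower, and 0 TIP60 and SRCAP subunits, 0 Rap1 genes and 0 macrophage markers higher.

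Leaving out 1 array at a time gave 369 to 712 genes higher and 541 to 643 lower. The counts ran from 0 to 3 for p53 targets higher, 0 to 1 for Y complex genes lower, 1 to 2 for 3′ end factors higher and 0 to 1 for TIP60 and SRCAP subunits higher. They ran from 0 to 1 for Rap1 genes higher, 1 to 2 for Rap1 genes lower, 1 to 4 for carboxypeptidases higher and 1 to 2 for cell division genes lower.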
